A study of Homo sapiens with 12 samples.

Results

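The genes described here are 10 that are widely used to mark or maintain a stem-like state in breast cancer: *CD44*, *CD24*, *ALDH1A3*, *MYC*, *SOX2*, *SOX4*, *SOX9*, *BMI1*, *POU5F1* and *NOTCH1*. They were found by name in a deposited table of read counts for 57773 genes. Of the 10 names, 9 had a row and *CD24* had none, and *SOX2* had too few reads to test. The remaining 8 genes were among the 20571 that passed the filter on low counts and were tested. RNA had been sequenced from MDA-MB-231 cells in 12 libraries. This established human line derives from a triple-negative breast cancer, a class that lacks the estrogen receptor, the progesterone receptor and amplified HER2. Libraries 1 to 3 came from untreated cells, 4 to 6 from cells given TGFβ, 7 to 9 from cells given alisertib, and 10 to 12 from cells given both agents, with treatment lasting 48 h. TGFβ, a cytokine, acts through receptor kinases and SMAD transcription factors, and alisertib inhibits Aurora A, a kinase of mitosis. All groups were the same line in DMEM with serum, and the sources used here do not give the doses. The labels do not tell whether replicate libraries are separate cultures; p-values therefore describe the spread among these libraries only, which may be technical.

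Breast tumours contain cells that can seed new tumours and that resemble tissue stem cells in some features. Such cells have been enriched by a surface pattern of high CD44 and low CD24, or by high aldehyde dehydrogenase activity, to which ALDH1A3 is a main contributor. SOX, MYC and OCT4 (the product of *POU5F1*) are transcription factors with roles in stem or progenitor cells, BMI1 belongs to a Polycomb complex that keeps genes silent, and NOTCH1 is a receptor activated by ligands on neighbouring cells. In many epithelial tumours, TGFβ is known to induce a mesenchymal state that shares features with the stem-like one.

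The libraries held 93701658 to 120619368 counted reads, and mitochondrial transcripts took 3.217% to 3.856% of them. Levels are given as CPM, which are counts scaled by library totals and TMM factors, and each group is given as the mean ± SD of its 3 libraries. Tests are edgeR's quasi-likelihood tests, with p adjusted by Benjamini-Hochberg over the 20571 genes, a gene is called changed at an adjusted p under 0.05, and log2 fold changes carry their standard error (SE). Most markers fitted the labelled line: *VIM* stood at 1224 to 2133 CPM and *EGFR* at 381.8 to 569.7 CPM. Of 6 luminal markers, *ESR1*, *PGR*, *FOXA1* and *ELF5* had at most 6 reads in any library. The luminal markers *ERBB2*, at 48.5 to 73.2 CPM, and *GATA3*, at 3.35 to 7.58 CPM, were present. Among 5 basal or mesenchymal markers, *KRT17* was low, at 0.0782 to 1.47 CPM. The 6 leukocyte markers summed to 1.65 to 3.39 CPM in untreated, 1.09 to 1.22 in TGFβ, 1.62 to 1.97 in alisertib and 0.954 to 1.07 in combined libraries, and among them *CD3E* had at most 4 reads a library. The 5 endothelial markers with a row summed to 2.80 to 3.11 CPM in untreated, 1.715 to 2.025 in TGFβ, 3.31 to 3.79 in alisertib and 2.14 to 2.455 in combined libraries, with *CLDN5* at 0 throughout. The part of these markers in the results was not tested. Libraries 1, 6, 9 and 10, which is 1 of each group, stood apart from the rest. Their deviations from the group mean correlated with each other at 0.711 to 0.86 across 11083 genes, and with the GC content of the genes at a rank correlation of -0.785 to -0.723. The rest had rank correlations of the opposite sign, from 0.158 in library 8 to 0.805 in library 2. Deviations within a group sum to 0, so partners mirror each other, and which libraries depart from the usual GC pattern cannot be told. Results that rest on them are given with and without them. The 4 were picked from these same counts for their deviations, so leaving them out narrows the spread within groups. Adjusted p without them, or with a model term for them, can therefore be too small and is given as a description.

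TGFβ changed 4 of the 8 tested genes: *SOX4* and *CD44* rose, and *ALDH1A3* and *SOX9* fell. This share stands against a background of 38.6% of all tested genes called in the same comparison, 18.5% higher and 20.1% lower, so it is not a result about these genes as a group. The same 4 genes had TGFβ and untreated libraries that did not overlap, which 46.4% of all tested genes had. The median log2 difference over the 8 genes was -0.01, as it was over all tested genes. With alisertib alone, *MYC* was the only one called, 1 of 8 beside a background of 6.74%, and it was also the only one whose groups did not overlap there, beside 21.6%. Between both agents and TGFβ alone, 0 of the 8 were called by edgeR, beside a background of 2.08%.

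**Figure D1:**
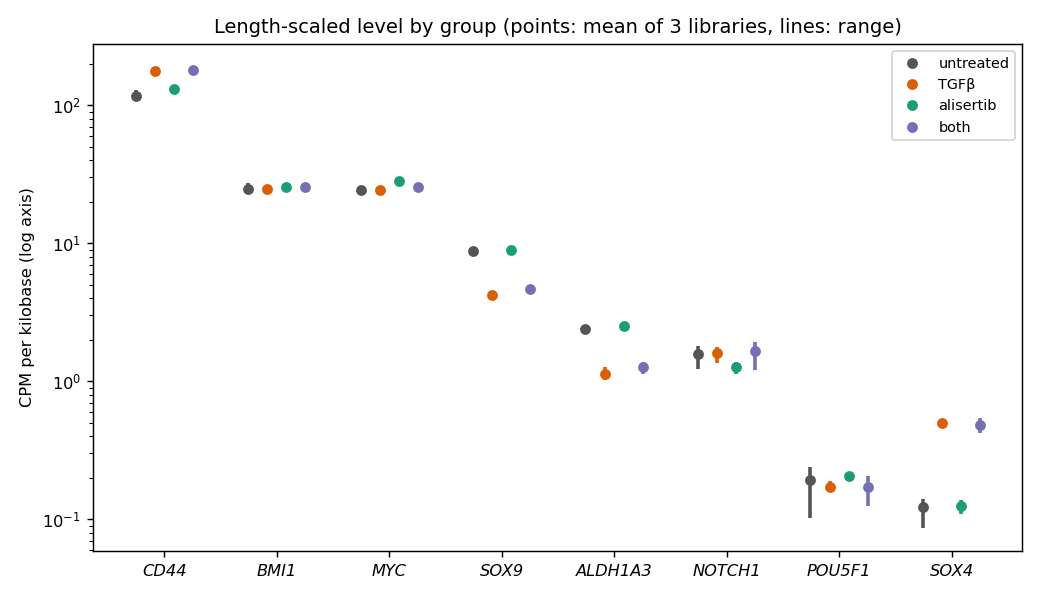
Levels of the 8 tested genes in CPM per kilobase of transcript on a log axis, with points for the mean of 3 libraries and lines for their range, coloured by treatment. *CD44* lies highest in every group, and *SOX4* lies below *POU5F1* without TGFβ and above it with TGFβ.

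In untreated cells *CD44* had the highest level per length of transcript, at 117.4 ± 10.1 CPM per kilobase. *BMI1* followed at 24.9 ± 1.96 and *MYC* at 24.4 ± 0.92 CPM per kilobase, and the ranges of these neighbours overlapped. Below them stood *SOX9* at 8.74 ± 0.326, *ALDH1A3* at 2.38 ± 0.0769 and *NOTCH1* at 1.56 ± 0.294 CPM per kilobase, each with a range separate from the next. *POU5F1* at 0.192 ± 0.0774 and *SOX4* at 0.123 ± 0.0312 CPM per kilobase closed the order with overlapping ranges. The order differed in the other groups at a few neighbours. With TGFβ, *NOTCH1* at 1.60 ± 0.213 stood above *ALDH1A3* at 1.13 ± 0.125 CPM per kilobase, and *SOX4* at 0.502 ± 0.0318 stood above *POU5F1* at 0.17 ± 0.0158. With alisertib, *MYC* at 28.0 ± 1.35 CPM per kilobase stood above *BMI1* at 25.5 ± 0.695 with no overlap. With both agents the *BMI1* and *MYC* ranges overlapped again, as did those of *NOTCH1* at 1.64 ± 0.375 and *ALDH1A3* at 1.28 ± 0.134 CPM per kilobase.

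Promoter sequences of *SOX4*, *CD44* and *ALDH1A3*, members that changed with TGFβ, are shown because SMAD proteins, which carry the TGFβ signal to the nucleus, bind the short motif CAGAC. The sequences are from RefSeq (GRCh38.p14), run 5′ to 3′ on the plus strand from 250 bases before to 50 bases after the annotated start, and have the motif, or its reverse complement GTCTG, in capitals. They lie at chr6:21593501-21593800 for *SOX4*, chr11:35138921-35139220 for *CD44* and chr15:100879581-100879880 for *ALDH1A3*. Of the 10 genes, 7 had an entry, and *SOX9* had none.
SOX4: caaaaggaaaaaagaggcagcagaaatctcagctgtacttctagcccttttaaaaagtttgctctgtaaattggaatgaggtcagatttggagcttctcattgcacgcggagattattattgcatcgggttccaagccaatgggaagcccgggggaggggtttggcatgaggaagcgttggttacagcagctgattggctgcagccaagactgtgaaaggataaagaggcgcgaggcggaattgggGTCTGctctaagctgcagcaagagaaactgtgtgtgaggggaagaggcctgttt
CD44: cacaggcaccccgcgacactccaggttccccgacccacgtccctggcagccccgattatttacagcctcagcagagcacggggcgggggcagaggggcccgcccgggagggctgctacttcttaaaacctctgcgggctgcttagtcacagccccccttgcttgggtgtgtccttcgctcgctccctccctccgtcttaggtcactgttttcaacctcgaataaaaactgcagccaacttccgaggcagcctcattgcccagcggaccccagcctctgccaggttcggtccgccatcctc
ALDH1A3: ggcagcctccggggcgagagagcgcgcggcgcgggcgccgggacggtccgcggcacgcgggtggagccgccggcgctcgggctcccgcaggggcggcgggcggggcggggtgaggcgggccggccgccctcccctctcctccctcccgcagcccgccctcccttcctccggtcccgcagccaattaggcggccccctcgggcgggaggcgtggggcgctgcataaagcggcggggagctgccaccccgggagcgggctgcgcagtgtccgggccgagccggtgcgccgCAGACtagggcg
The *SOX4* and *ALDH1A3* windows hold 1 match each and the *CD44* window holds none. Of 35116 promoter windows of the same length, 45.3% hold at least 1 match on either strand. A match of so common a motif is a description of the letters and not a binding site.

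*CD44*, the hyaluronan receptor on chromosome 11 (hg19 35160417 to 35253949, ENSG00000026508), is the surface protein that defines the CD44-high pattern. It was measured at 1299, 1125 and 1120 CPM in untreated libraries and at 1723, 1715 and 1883 CPM with TGFβ. With alisertib it stood at 1289, 1291 and 1372 CPM, and with both agents at 1903, 1751 and 1811 CPM. All 6 libraries with TGFβ lay above all 6 without it. The TGFβ difference was 0.59 ± 0.06 on the log2 scale, 1.5-fold, with an adjusted p of 3.219e-06, and that between both agents and alisertib alone was 0.47 ± 0.06 with an adjusted p of 3.547e-05. The alisertib difference of 0.16 ± 0.06 had an adjusted p of 0.1714, and untreated library 1 overlapped the alisertib group. Library 1 stood above both of its partners, as libraries 6, 9 and 10 did for this gene, with ratios of 1.063 to 1.157 to the mean of the partners. Without library 1 the alisertib difference passed the test with an adjusted p of 0.00864, and without libraries 1, 6, 9 and 10 with 4.7e-05. These libraries were picked for their deviations in the same counts, so both p can be too small. Counts per gene do not separate the standard from the variant isoforms of CD44.

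Genes that make, bind or cut the partners of CD44 changed in both directions. Of 13 tested ligands, partners and splicing factors of *CD44*, 5 rose and 4 fell with TGFβ, with a median log2 difference of -0.03 beside -0.01 over all tested genes. The TGFβ counts of this and the following lists stand beside 38.6% of all tested genes called. Those for alisertib stand beside 6.74%, and those between both agents and TGFβ alone beside 2.08%. The TGFβ medians stand beside the same -0.01. No list was tested as a set, and the lists were chosen with earlier results of these data known. *HAS2*, a synthase of the CD44 ligand hyaluronan, rose from 3.88 ± 0.183 to 11.2 ± 0.671 CPM, a log2 difference of 1.52 ± 0.08 with an adjusted p of 2.703e-09. *HAS2* also rose with alisertib alone, to 5.995 ± 0.231 CPM, by 0.63 ± 0.08 with an adjusted p of 0.000573. *MSN*, which encodes moesin, a link between CD44 and the actin cortex, rose by 0.89 ± 0.04 with TGFβ. *MMP14*, a membrane protease that can shed CD44, rose by 1.34 ± 0.08, and *LRP1*, an endocytic receptor, by 2.54 ± 0.21. Of the list, 1 gene rose and 1 fell with alisertib, and none of the 13 was called between both agents and TGFβ alone.

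*CD24*, a small sialoglycoprotein whose low level completes the surface pattern, was not among the gene names of the table and is not analysed here. A row named *CD24P4* (ENSG00000185275) holds a near-identical copy: 241 of 243 aligned bases of its GENCODE 29 transcript are identical to a *CD24* transcript. It was looked up after the absence of *CD24* was seen, and whether its reads came from *CD24* cannot be told apart from these counts. The copy had 33 to 51 reads in untreated libraries and 115 to 133 with TGFβ. Alisertib libraries held 43 to 63 reads of it, and combined ones 110 to 123. Its level of 0.399 ± 0.0863 CPM in untreated cells and 1.15 ± 0.0876 CPM with TGFβ differed by 1.52 ± 0.19 on the log2 scale, 2.87-fold, with an adjusted p of 1.841e-05. It was not called with alisertib (0.36 ± 0.20, adjusted p of 0.3705). All TGFβ libraries lay above all untreated ones for this row.

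Other surface proteins linked to breast stem-like cells changed with TGFβ in both directions. Of 15 listed, 3 had too few reads, and of the 12 tested 4 rose and 8 fell, with a median log2 difference of -0.61. Of all tested genes 38.6% were called with TGFβ. The fibronectin and collagen receptor subunit *ITGB1* rose from 2190 ± 140.1 to 5347 ± 235.6 CPM, by 1.29 ± 0.06 with an adjusted p of 2.774e-10. *ITGB3*, another integrin subunit, rose by 1.44 ± 0.08. The neurotrophin receptor *NGFR* fell by 3.59 ± 0.24 on the log2 scale, from 2.43 ± 0.494 to 0.201 ± 0.0387 CPM. *GPRC5A*, an orphan receptor induced by retinoic acid, fell by 2.32 ± 0.06, from 368.9 ± 13.6 to 73.8 ± 1.76 CPM. With alisertib alone 3 of the 12 rose: *PROCR*, the protein C receptor, by 0.29 ± 0.05 (adjusted p of 0.005636), the drug exporter *ABCG2* by 0.45 ± 0.11 (0.02817) and the integrin subunit *ITGA6* by 0.19 ± 0.05 (0.04924). On top of TGFβ, alisertib raised *ITGA6* by 0.24 ± 0.05 (0.02736) and the chemokine receptor *CXCR4* by 0.36 ± 0.07 (0.02246). The *ABCG2* and *ITGA6* calls with alisertib alone were lost without any one of libraries 2, 3, 7, 8 and 9, the *CXCR4* call without any one of libraries 4, 5, 6, 10, 11 and 12, and the *ITGA6* call on top of TGFβ without any one of libraries 4, 5, 10, 11 and 12, with adjusted p of up to 0.1889 over the alternatives. With only the compared groups in the fit, the *PROCR*, *ABCG2* and *ITGA6* calls with alisertib alone were lost, and with upper-quartile scaling both *ITGA6* calls were lost. *PROM1*, the CD133 gene, had 0 to 11 reads a library and was not tested.

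*ALDH1A3*, on chromosome 15 (hg19 101417919 to 101456831, ENSG00000184254), encodes an enzyme that oxidises retinaldehyde to retinoic acid. It was measured at 13.5, 14.3 and 13.5 CPM in untreated libraries and at 5.94, 6.33 and 7.33 CPM with TGFβ. With alisertib it stood at 14.8, 14.9 and 13.8 CPM, and with both agents at 7.92, 6.49 and 7.71 CPM. The 6 libraries with TGFβ all lay below the 6 without it. *ALDH1A3* fell by 1.07 ± 0.09 on the log2 scale with TGFβ, to a level lower by a factor of 2.10, with an adjusted p of 4.104e-07. With both agents it fell by 0.98 ± 0.09 against alisertib alone, with an adjusted p of 1.211e-06. The alisertib difference was 0.08 ± 0.09 (95% interval -0.12 to 0.28) without TGFβ and 0.17 ± 0.09 (-0.03 to 0.38) with it, and neither passed the test. *RP11-66B24.8* and *RP11-66B24.4* overlap *ALDH1A3* and had 38 to 89 and 78 to 207 reads a library, beside 633 to 1616 for *ALDH1A3*. The kit does not mark strand, so reads in shared stretches cannot be told apart.

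Of 16 tested other members of the aldehyde dehydrogenase family, 7 fell and 2 rose with TGFβ, with a median log2 difference of -0.29. *ALDH3A2*, which oxidises fatty aldehydes, fell by 0.74 ± 0.06, from 51.3 ± 3.48 to 30.7 ± 0.777 CPM. The mitochondrial *ALDH6A1*, of valine breakdown, fell by 0.84 ± 0.06, *ALDH7A1*, of lysine breakdown, by 0.62 ± 0.06, and *ALDH3B1* by 1.23 ± 0.13. With alisertib alone 3 of the 16 fell and none rose. Among these *ALDH3A2* fell by 0.37 ± 0.06 with an adjusted p of 0.001379 and *ALDH6A1* by 0.35 ± 0.06 with an adjusted p of 0.002888. *ALDH1A1*, the family member most often used as a stained marker, had 0 to 4 reads a library and was not tested.

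Genes that carry, make or respond to retinoic acid, the product of ALDH1A3, changed with TGFβ in 11 of 14 tested cases, 6 higher and 5 lower, with a median log2 difference of 0.03. This count stands beside 38.6% of all tested genes called, and the list was chosen with earlier results of these data known. *CYP26B1*, which degrades retinoic acid, rose by 1.78 ± 0.10, from 7.19 ± 0.947 to 24.7 ± 1.06 CPM. *CRABP2*, which delivers retinoic acid to its nuclear receptor, fell by 1.98 ± 0.14, and the retinoid-responsive *RARRES3* fell by 2.19 ± 0.10, from 20.5 ± 2.01 to 4.49 ± 0.408 CPM. With alisertib alone *RARRES3* fell by 0.45 ± 0.09 with an adjusted p of 0.009501, which became 0.0549 without untreated library 3.

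**Figure D2:**
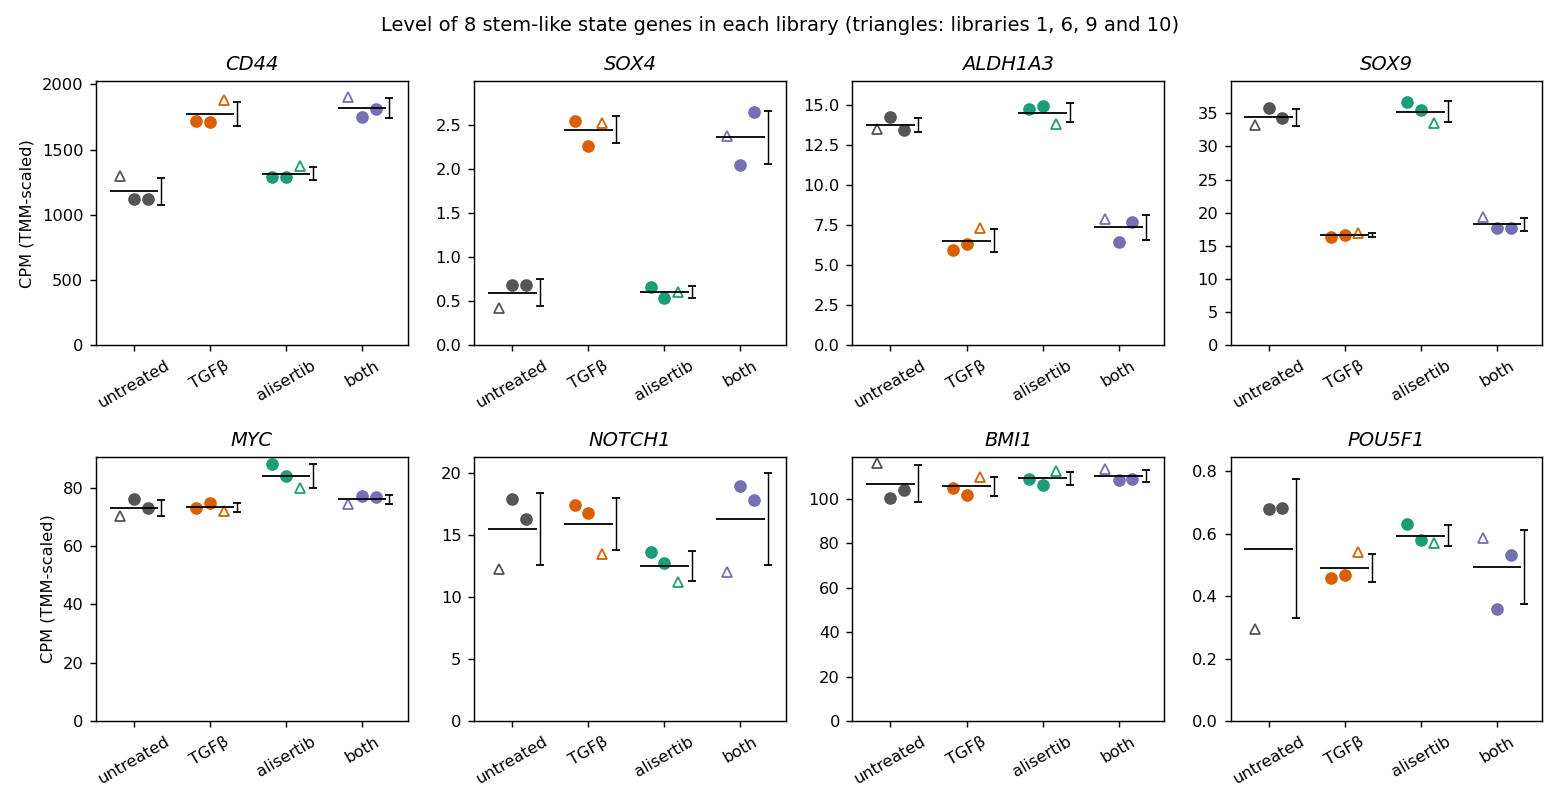
Level of each tested gene in every library in CPM, with horizontal lines for the mean of 3 libraries, bars for ± 1 SD, and open triangles for libraries 1, 6, 9 and 10. Libraries with TGFβ separate from those without it for *CD44*, *SOX4*, *ALDH1A3* and *SOX9*, and the triangles are lowest of their group for *MYC* and *NOTCH1*.

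*SOX4*, on chromosome 6 (hg19 21593972 to 21598847, ENSG00000124766), is a transcription factor of the SOX family with an established place downstream of TGFβ. It was scarce in untreated libraries, at 0.423, 0.688 and 0.684 CPM, and stood at 2.55, 2.27 and 2.52 CPM with TGFβ. With alisertib it was measured at 0.668, 0.534 and 0.609 CPM, and with both agents at 2.38, 2.05 and 2.65 CPM. The lowest library with TGFβ, at 2.05 CPM, lay above the highest without it. The rise with TGFβ was 2.02 ± 0.18 on the log2 scale, 4.07-fold, with an adjusted p of 3.951e-07, the largest change among the 8 genes in this comparison. The rise was 1.96 ± 0.18 in the presence of alisertib, with an adjusted p of 6.173e-07. The alisertib difference was 0.01 ± 0.20 (95% interval -0.41 to 0.43) without TGFβ and -0.05 ± 0.16 (-0.39 to 0.29) with it.

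*SOX9*, on chromosome 17 (hg19 70117161 to 70122561, ENSG00000125398), is a factor of mammary progenitor cells. It moved opposite to *SOX4*: 33.2, 35.7 and 34.3 CPM in untreated libraries became 16.4, 16.6 and 16.9 CPM with TGFβ. With alisertib the libraries read 36.6, 35.5 and 33.6 CPM, and with both agents 19.3, 17.7 and 17.7 CPM. *SOX9* fell by 1.05 ± 0.06 on the log2 scale with TGFβ, lower by a factor of 2.07, with an adjusted p of 3.407e-09, the smallest of the 8 genes. The 3 combined libraries lay above the 3 TGFβ libraries, but the difference of 0.13 ± 0.06 had an adjusted p of 0.3673, and groups that do not overlap were found for 20.4% of all tested genes in that comparison. The antisense gene *SOX9-AS1* overlaps it and had 70 to 192 reads a library; the kit does not mark strand, so their reads cannot be told apart.

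*SOX2*, a core factor of embryonic and neural stem cells, had 2 reads in untreated library 1, 2 in TGFβ library 4 and 0 in the other 10 libraries. A count of 0 over the 3 alisertib libraries allows a level of up to 0.0099 CPM, and over the 3 combined libraries up to 0.00887 CPM, for counting error only. No difference between groups can be detected at these counts. Of 17 other SOX genes with a row, 13 were also below the filter, among them *SOX10* with 3 reads in all. None of the 4 tested was called with TGFβ or with alisertib by edgeR.

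*MYC*, on chromosome 8 (hg19 128747680 to 128753674, ENSG00000136997), encodes a transcription factor that drives growth and ribosome production. It was measured at 70.4, 76.0 and 73.0 CPM in untreated libraries and at 72.9, 74.9 and 71.8 CPM with TGFβ. With alisertib it stood at 87.9, 83.9 and 79.8 CPM, and with both agents at 74.2, 77.0 and 76.9 CPM. The alisertib libraries lay above all others. The rise over untreated cells was 0.20 ± 0.05 on the log2 scale, 1.15-fold, with an adjusted p of 0.02699. *MYC* was lower with both agents than with alisertib alone, by -0.14 ± 0.05, with an adjusted p of 0.03286. The interaction, the alisertib difference with TGFβ minus that without it, was -0.14 ± 0.07 with an unadjusted p of 0.05661 and an adjusted p of 0.9159, so the 2 alisertib differences are not shown to differ. The rise with alisertib was lost without untreated library 3, alisertib library 7 or alisertib library 8, where adjusted p ran from 0.0819 to 0.129, and with only the compared groups in the fit. The lower level with both agents was lost without library 7, 8, 10, 11 or 12, where adjusted p ran from 0.0634 to 0.116, and with no filter on low counts, where it was 0.0616. The TGFβ difference of 0.00 ± 0.05 had a 95% interval of -0.10 to 0.11.

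Of 17 tested genes of the network of MAX, which pairs with MYC, and of the competing MXD and MLX factors, 5 rose and 6 fell with TGFβ and 1, *SKP2*, which encodes a subunit of a ubiquitin ligase that acts on MYC, fell with alisertib, by 0.36 ± 0.06 with an adjusted p of 0.00161. *MAX* rose by 0.45 ± 0.06 from 26.0 ± 0.897 to 35.5 ± 0.376 CPM, *MXD4*, a repressor that competes for MAX, by 0.96 ± 0.19, and *MLXIP* by 1.64 ± 0.10. *MLXIPL*, the glucose-responsive ChREBP gene, fell by 3.15 ± 0.49 from 0.738 ± 0.271 CPM. *SKP2* was also among those that fell with TGFβ. Between both agents and TGFβ alone *SKP2* was the only 1 of the 17 called by edgeR, at 32.8 ± 1.56 beside 41.5 ± 2.54 CPM. Of 20 tested MYC target genes, 10 fell and 1 rose with TGFβ, with a median log2 difference of -0.15. *POLR1B*, a subunit of RNA polymerase I, fell by 0.46 ± 0.06, *GNL3*, which encodes nucleostemin, by 0.32 ± 0.08, and the nucleotide kinase *NME1* by 0.19 ± 0.05. The 1 that rose was *ODC1*, the first enzyme of polyamine synthesis, from 166.5 ± 23.6 to 276.5 ± 10.0 CPM. *ODC1* was also higher with both agents than with TGFβ alone, at 381.0 ± 8.92 CPM, by 0.46 ± 0.08 with an adjusted p of 0.008213, which became 0.0517 without TGFβ library 5. None of the 20 targets was called with alisertib alone by edgeR, where their median log2 difference was 0.03 beside -0.01 over all tested genes.

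*POU5F1*, on chromosome 6 (hg19 31132119 to 31148508, ENSG00000204531), encodes OCT4, a core factor of pluripotent cells. It was near the limit of detection, at 0.296, 0.678 and 0.684 CPM in untreated libraries and 0.459, 0.469 and 0.542 CPM with TGFβ. With alisertib it stood at 0.632, 0.582 and 0.569 CPM and with both agents at 0.588, 0.359 and 0.532 CPM. Each treated group overlapped the untreated one, and untreated library 1 was the lowest of all 12. The TGFβ libraries lay below the alisertib ones, but those groups were not compared by a test, and no share over all genes is given for them. The TGFβ difference of -0.18 ± 0.28 had a 95% interval of -0.79 to 0.43 and was not called. Without libraries 1, 6, 9 and 10 it was -0.55 with an adjusted p of 0.117, and the difference between both agents and untreated cells, -0.17 ± 0.28 over all libraries, was -0.61 with an adjusted p of 0.0811. The gene overlaps *TCF19*, which had 9872 to 15052 reads a library, and has pseudogene copies elsewhere, so its counts are uncertain. Of 16 other pluripotency factors, 11 were below the filter, among them *NANOG* with 1 read in all. Of the 5 tested, *KLF4*, a factor of reprogramming and of epithelial differentiation, rose with TGFβ from 11.6 ± 0.278 to 36.5 ± 0.945 CPM, by 1.66 ± 0.06 with an adjusted p of 1.605e-11, and with alisertib to 16.1 ± 0.30 CPM, by 0.47 ± 0.06 with an adjusted p of 0.0002013. The DNA methyltransferase *DNMT3B* rose with TGFβ by 0.28 ± 0.08, and *TFCP2L1* fell by 0.65 ± 0.09.

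*BMI1*, on chromosome 10 (hg19 22610140 to 22620413, ENSG00000168283), is a subunit of Polycomb repressive complex 1, which ubiquitinates histone H2A and supports self-renewal. It was measured at 116.1, 100.04 and 103.8 CPM in untreated libraries and at 104.9, 101.5 and 109.8 CPM with TGFβ. With alisertib it stood at 108.6, 106.3 and 112.2 CPM and with both agents at 113.1, 108.5 and 108.8 CPM. All groups overlapped, and libraries 1, 6, 9 and 10 were each the highest of their group. The TGFβ difference was -0.02 ± 0.06 (95% interval -0.14 to 0.10) and the alisertib difference 0.03 ± 0.06 (-0.09 to 0.15). The difference between both agents and untreated cells, 0.05 ± 0.06 with an adjusted p of 0.5528, was not called by edgeR over all libraries. With libraries 1, 6, 9 and 10 left out it was called, at 0.09 with an adjusted p of 0.0453. This p can be too small because these libraries were picked for their deviations. The read-through gene *COMMD3-BMI1* spans *BMI1* and had 8788 to 10833 reads a library, which may be reads of either.

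Of 20 tested genes of Polycomb repressive complex 1, 6 rose and 3 fell with TGFβ, beside 38.6% of all tested genes called, with a median log2 difference of 0.14, and none was called with alisertib alone or between both agents and TGFβ by edgeR. *PCGF2*, the closest paralog of *BMI1*, rose from 30.01 ± 3.65 to 51.6 ± 1.85 CPM, by 0.78 ± 0.08 with an adjusted p of 3.527e-06. *PCGF1* rose by 0.34 ± 0.06 and its partner *BCOR* by 0.44 ± 0.06, and *RYBP*, of the variant complexes, fell by 0.28 ± 0.05. The *CDKN2A* locus, known elsewhere as a target of BMI1, had 2 reads over the 12 libraries, and *CDKN2B* had none. Counts do not show why reads were absent, and silencing by BMI1 was not tested. Of 10 INK4 and HOX genes 2 could be tested. *HOXB9* rose by 0.24 ± 0.08 with TGFβ and by 0.31 ± 0.08 with alisertib. Its TGFβ call was lost without library 2, 3, 5 or 6, with upper-quartile scaling (adjusted p of 0.0821) and with only the compared groups in the fit (0.069). Its alisertib call was lost without library 2, 3, 7 or 8, with adjusted p of up to 0.172, and with only the compared groups (0.159).

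*NOTCH1*, on chromosome 9 (hg19 139388896 to 139440314, ENSG00000148400), is a receptor that is cut on ligand binding and releases a transcriptional activator. It was measured at 12.2, 17.8 and 16.3 CPM in untreated libraries and at 17.4, 16.7 and 13.4 CPM with TGFβ. With alisertib it stood at 13.6, 12.7 and 11.2 CPM and with both agents at 12.0, 18.9 and 17.8 CPM. Libraries 1, 6, 9 and 10 were each the lowest of their group, at 0.654 to 0.849 of the mean of their partners. The GC content of its longest transcript is 62.9%, beside a median of 48.2% over 19649 tested genes. The alisertib difference was -0.31 ± 0.17 with an adjusted p of 0.3514. Without libraries 1, 6, 9 and 10 it was -0.37 with an adjusted p of 0.000274, and with a model term for these libraries it was -0.29 with an adjusted p of 0.00415. The difference between both agents and alisertib alone, 0.38 ± 0.17 with an adjusted p of 0.09165, likewise passed the test without combined library 10 (adjusted p of 0.0115) and without all 4 libraries (2.0e-06). As these libraries were picked for their deviations, the p of such fits can be too small. The TGFβ difference was 0.04 ± 0.17, with a 95% interval of -0.32 to 0.40.

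**Figure D3:**
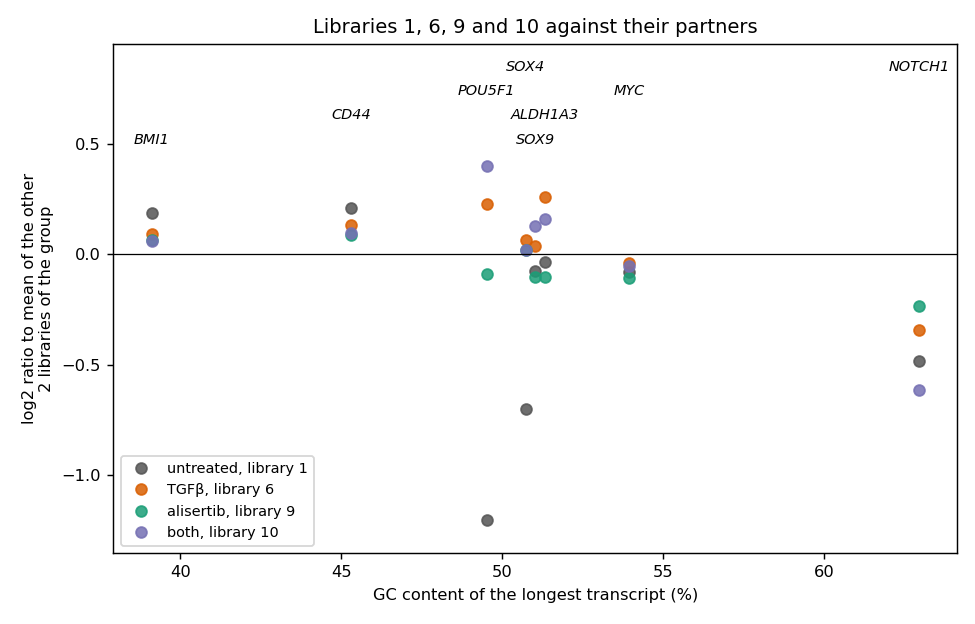
Log2 ratio of libraries 1, 6, 9 and 10 to the mean of the other 2 libraries of their group, for each tested gene, against the GC content of its longest transcript in percent. *BMI1* and *CD44*, at 39.1% and 45.3% GC, lie above 0 in all 4 libraries, and *MYC* and *NOTCH1*, at 53.9% and 62.9% GC, below 0.

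Ligands, processing enzymes and nuclear factors of the pathway include several genes that rose with TGFβ. *JAG1*, a NOTCH ligand, rose with TGFβ from 36.8 ± 1.09 to 211.2 ± 1.62 CPM, by 2.52 ± 0.04 with an adjusted p of 3.258e-14, and with alisertib to 51.5 ± 0.974 CPM, by 0.48 ± 0.04 with an adjusted p of 2.53e-05. The endothelial receptor *NOTCH4* rose with TGFβ by 1.63 ± 0.28 from 0.436 ± 0.159 CPM, and the other 4 tested receptors and ligands were not called. Of 22 tested genes that process or modify the receptor, 9 rose and 3 fell with TGFβ. *LFNG*, a sugar transferase that tunes ligand choice, rose by 2.30 ± 0.14 from 9.64 ± 1.65 to 47.7 ± 4.77 CPM. The proteases *FURIN* and *ADAM17*, which cut the receptor, rose by 1.53 ± 0.18 and 0.49 ± 0.05, and *NUMB*, an inhibitor of the pathway, by 0.34 ± 0.04. Of 11 tested nuclear factors and targets, 5 rose and 1 fell. *RBPJ*, the DNA-binding partner of the cut receptor, rose by 0.67 ± 0.05, *MAML1*, its coactivator, by 0.40 ± 0.05, *SPEN*, a corepressor, by 0.69 ± 0.04, and *HES1*, a target gene, by 1.69 ± 0.11 from 2.83 ± 0.415 to 9.15 ± 0.675 CPM.

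**Figure D4:**
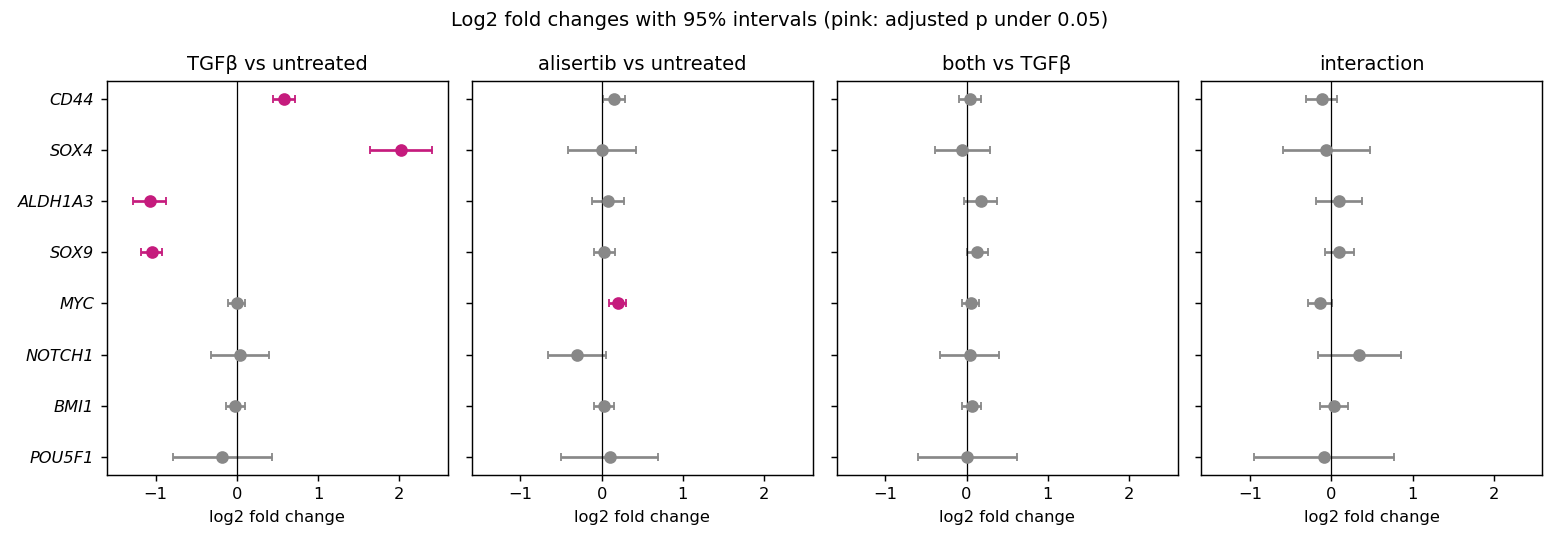
Log2 fold changes of the 8 tested genes in 4 contrasts, with points for the estimate, bars for the 95% interval and pink for an adjusted p under 0.05. With TGFβ *SOX4* lies at 2.02 and *SOX9* at -1.05, with alisertib *MYC* at 0.20 is called, and no gene is called in the combined comparison with TGFβ or in the interaction.

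The same 4 genes were called with both agents against untreated cells as with TGFβ alone, in the same directions, beside a background of 39.7% called and 45.7% with groups that do not overlap; both comparisons share the untreated libraries. The log2 differences were 1.97 ± 0.18 for *SOX4*, 0.62 ± 0.06 for *CD44*, -0.90 ± 0.09 for *ALDH1A3* and -0.92 ± 0.06 for *SOX9*. Against alisertib alone, 5 of the 8 were called with both agents, these 4 and *MYC*, beside a background of 38.4%, and the same 5 had groups that do not overlap, beside 50.3%. Between both agents and TGFβ alone, 0 of 8 were called by edgeR and 0 by DESeq2, and *SOX9*, 1 of 8, had an unadjusted p under 0.05, as did 12.8% of all tested genes. For *CD44* the interval of this difference was -0.10 to 0.17, for *SOX4* -0.39 to 0.29 and for *NOTCH1* -0.32 to 0.40 on the log2 scale. The interaction was called for 0 of 8 genes by edgeR and by DESeq2, beside a background of 0.282%, and 0 of 8 had an unadjusted p under 0.05, beside 5.69% of all tested genes. Without libraries 1, 6, 9 and 10 the *NOTCH1* interaction was called, at 0.48 with an adjusted p of 0.00443, which can be too small because these libraries were picked for their deviations.

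Markers of breast cell states that lie beside the stem-like one were also counted. Of 8 tested luminal genes, 3 fell and 2 rose with TGFβ: the luminal factor *GATA3* fell by 0.96 ± 0.12, the EGFR ligand *AREG* by 3.23 ± 0.32 and the mucin *MUC1* by 0.92 ± 0.15, while *XBP1* rose by 0.40 ± 0.05. *MUC1* also fell with alisertib alone, from 19.3 ± 4.57 to 9.96 ± 1.32 CPM, by 0.96 ± 0.15 with an adjusted p of 0.00158. Of 9 tested basal genes, 6 rose and 2 fell with TGFβ. The intermediate filament gene *VIM* rose by 0.73 ± 0.04 and the growth factor receptor *EGFR* by 0.52 ± 0.04, and *CAV1*, a coat protein of caveolae, fell by 0.69 ± 0.04. Of the leukocyte markers *CD14* fell by 1.43 ± 0.26 with TGFβ, from 2.16 ± 0.819 CPM, and of the endothelial markers *KDR* fell by 1.10 ± 0.15. In cultures of 1 line, a change in the share of cells in a state and a change in RNA per cell cannot be told apart.

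**Figure D5:**
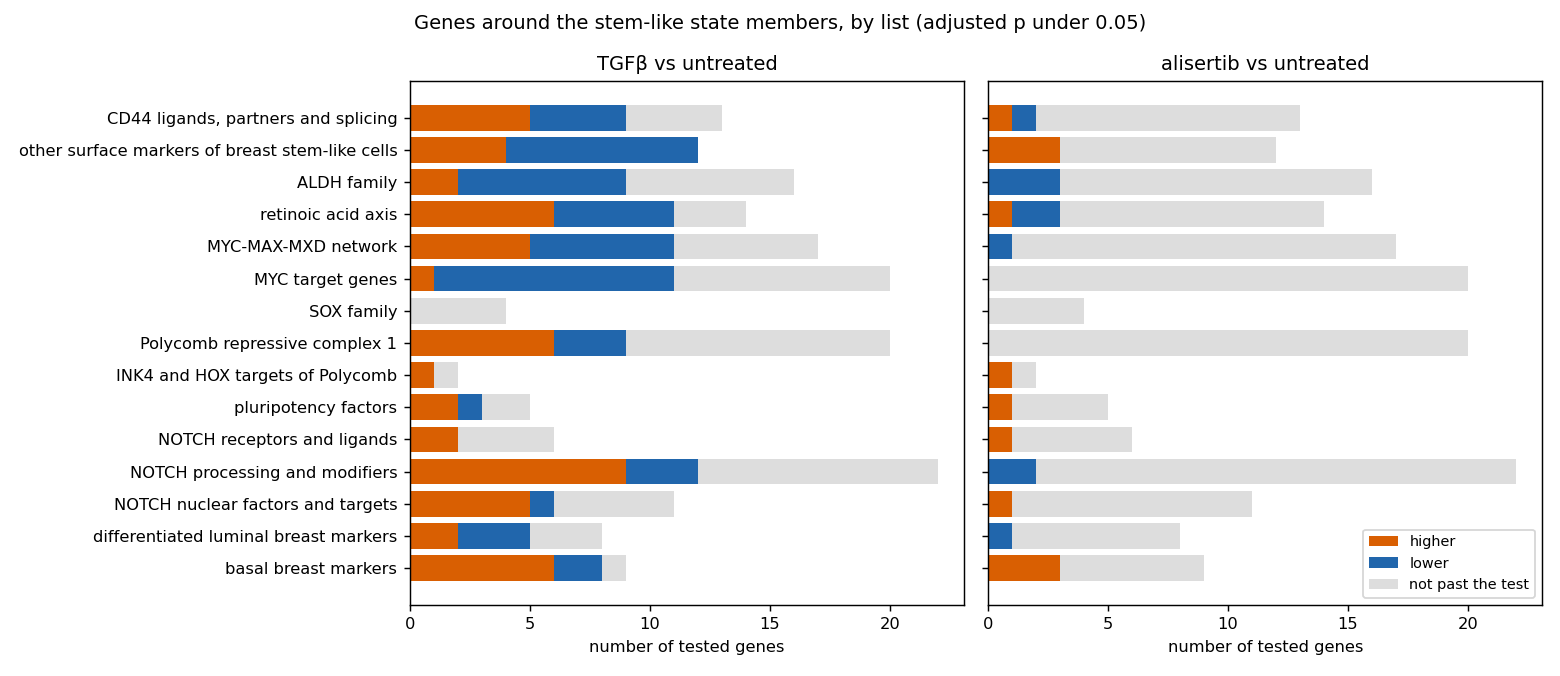
Number of tested genes in each list around the stem-like state genes that were higher (orange), lower (blue) or not past an adjusted p of 0.05 (grey), for TGFβ and for alisertib against untreated cells. All 12 tested surface markers were called with TGFβ, beside 38.6% of all tested genes. No gene of Polycomb repressive complex 1 and no MYC target gene was called with alisertib, beside 6.74%.

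The genes whose levels ran closest to each member were found as the highest correlations of log2 CPM over the 12 libraries among 9373 genes. These are descriptions: all points share the same libraries, and a gene that follows the TGFβ groups correlates with any other that does. *CD44* was closest to *PANX1* (r of 0.996), *SOX4* to *CLN8* (0.991), *SOX9* to *CITED2* (0.997) and *ALDH1A3* to *LPAR1* (0.991). *LPAR1* ranked 2 for *SOX9*, and *SOX9* ranked 3 for *ALDH1A3* at 0.989. *MYC* ran closest to *BYSL*, a ribosome assembly factor (0.931), and *NOTCH1* to *TSSC1* (0.977). *BMI1* ran closest to *ASAH1* (0.969), with *PCGF6*, another Polycomb subunit, next but one at 0.962. The closest gene to *POU5F1* was *BCL6*, at only 0.765.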

How the data were processed

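RNA of 12 libraries was sequenced, 3 in each of 4 groups set by the labels. Per the labels' protocols, total RNA was taken with a miRNeasy kit and the sequencing libraries came from a TruSeq RNA v2 kit, whose reads do not carry strand. The submitters' processing notes name hg19 as the build and TopHat, featureCounts, Subread and bcl2fastq as tools, and the sources used here do not give versions or settings. The authors deposited 1 table with read counts for every gene, whole numbers without normalisation. Beside them stand RPKM values made by the authors, used here only to check their scaling, with denominators of 1.1 to 1.11 times the library total. Depth was 93701658 to 120619368 reads a library.

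Counts were tested with edgeR 4.0.16 in R 4.3.3 (filterByExpr, TMM, robust quasi-likelihood fit of all 12 libraries, 8 residual degrees of freedom). The contrasts were the 5 pairwise ones and the interaction, with Benjamini-Hochberg adjustment over 20571 genes and a threshold of 0.05. SEs and 95% intervals were derived from the F statistic. Alternatives were DESeq2 1.42.0, upper-quartile scaling, no filter, only the groups compared, a term for or omission of libraries 1, 6, 9 and 10, each library left out, and plain totals for levels. The fit was also run on simulated counts drawn independently for each library, without the deviation shared by libraries 1, 6, 9 and 10. That run therefore cannot give the error rate of the tests in these libraries. GC content came from GENCODE 29 transcripts. Where 2 rows shared a symbol, as for *JAG1* and *ITGB3*, the row with most reads was used.

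The members, the 17 gene lists around them and the tests were chosen with earlier results of these data known. The genes named are the members, up to 4 genes of each list with the smallest adjusted p over the 2 single-agent comparisons and that of both agents with TGFβ, and the genes most similar to each member among those with a mean of at least 5 CPM; *CD24P4*, *PROCR*, *ABCG2*, *ITGA6*, *CXCR4*, *SKP2* and list genes named for low counts fall outside this rule and were named after their values were seen. Some genes within the rule are not reported here.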

Additional observations from a re-analysis of the deposited data

Results flagged for a closer look

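The difference between the alisertib effect with TGFβ and that without it passed the test (edgeR, p adjusted over all tested genes) for 2 genes named above. For *JAG1* it was -0.43 ± 0.06 on the log2 scale with an adjusted p of 0.00804: alisertib raised the gene by 0.48 ± 0.04 without TGFβ, where no untreated library overlapped the alisertib libraries, and the difference was 0.05 ± 0.04 with an adjusted p of 0.682 on top of TGFβ. The *JAG1* call held under all 17 alternatives, with adjusted p of at most 0.0385. For *KLF4* the difference was -0.42 ± 0.08 with an adjusted p of 0.0386, between 0.47 ± 0.06 without TGFβ and 0.05 ± 0.05 with it. The *KLF4* call held under 6 of 17 alternatives and was lost without any one of libraries 2 to 12, with adjusted p of 0.0635 to 0.151.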

How the results depend on the processing

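No paired analysis was possible because the replicate numbers run from 1 to 12 and are not shared between groups. The calls of *CD44*, *SOX4*, *ALDH1A3* and *SOX9* in the 3 contrasts of TGFβ held under all 12 alternatives each. With alisertib against untreated cells, 1 member was called, 3 with libraries 1, 6, 9 and 10 left out, 3 with a term for them, 0 with only the compared groups and 0 to 2 with 1 library left out; of all genes 1387 were called, and 5091, 4057, 618 and 723 to 2630 under the same settings. Between both agents and TGFβ, 428 genes were called, 705 by DESeq2, 1427 with the 4 libraries left out, 1820 with the term and 153 to 249 with 1 left out. The interaction called 0 members, and 1 with the 4 left out; it called 58 genes, 181 by DESeq2, 743 with the 4 left out, 105 with no filter, 382 with the term and 19 to 167 with 1 left out. Upper-quartile scaling moved the higher share of calls with alisertib from 52.6% to 62.8%, and between both agents and alisertib from 50.6% to 40.6%.

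Log2 differences that were not called changed sign as follows. With TGFβ, *MYC* was -0.045 with upper-quartile scaling, -0.0016 with no filter and -0.011 with the 4 libraries left out (-0.025 to 0.034 with 1 left out), *NOTCH1* -0.011 with upper-quartile scaling and -0.00056 with the 4 left out (-0.11 to 0.16), *BMI1* 0.019 with the 4 left out (-0.055 to 0.049), and *POU5F1* ran from -0.47 to 0.0067 with 1 left out. With alisertib and the 4 left out, *SOX4* was -0.18 (-0.18 to 0.12) and *POU5F1* -0.16 (-0.20 to 0.28), and *BMI1* ran from -0.0083 to 0.097. In the interaction with the 4 left out, *SOX4* was 0.15 (-0.19 to 0.13), *POU5F1* 0.11 (-0.29 to 0.20) and *BMI1* -0.0069 (-0.034 to 0.062). Between both agents and TGFβ, *POU5F1* was -0.0042 with only these groups and -0.053 with the 4 left out (-0.13 to 0.19), *SOX4* ran from -0.15 to 0.041 and *NOTCH1* from -0.086 to 0.21. Between both agents and alisertib, *BMI1* was -0.045 with upper-quartile scaling (-0.012 to 0.026). Between both agents and untreated cells, *BMI1* ran from -0.0034 to 0.11, *POU5F1* from -0.47 to 0.011 and *NOTCH1* from -0.069 to 0.25. The cause of these shifts was not tested. Plain library totals moved 6 of 36 member levels by more than 1 SD: *CD44* with alisertib to 1367 CPM, *MYC* to 70.6 with TGFβ and 74.0 with both, *SOX9* with TGFβ to 16.0, and *BMI1* to 113.1 with alisertib and 107.1 with both. At 4 reads over the 12 libraries, no change of *SOX2* could be detected.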
